A study of Mus musculus with 8 samples.

Results

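Cultured endothelial cells of mouse liver, the lining cells of its vessels, were compared with and without 16 hours of the cytokines IL1B and TNFA in the genotype labelled WT. The comparison used 4 of the 8 libraries in the series, 2 WT libraries with cytokines and 2 WT control libraries without, chosen by genotype and treatment in the sample labels, and covered all genes of the table. The cells of all 4 libraries had been isolated from mouse liver, grown in endothelial medium and exposed to 4-OHT, an active form of tamoxifen that switches on an inducible recombinase, for 48 hours. After 7 days in total the cytokine group received IL1B and TNFA, and polyadenylated RNA came from live cells sorted as VE-cadherin+, CD31+ and CD45-. The labels place the 4-OHT both in the medium and in the mice, and they do not say which promoter drives a recombinase or whether WT cells carry one. The other 4 libraries, from the genotype labelled dKO (not expanded in the labels; the design text names deletion of Erg, Fli1 or both), entered the fit to share the estimate of spread and are used here only for a comparison of the response. The labels do not say whether libraries of the same group had different animals or cultures behind them, so p-values reflect only the variation among these samples. Sex-linked levels, given below, differ between the 2 WT replicate numbers, which thus did not share an animal. How many animals each library had is not known. Levels are CPM, counts relative to the scaled library size, and are given for replicate 1 and then replicate 2, with n = 2 in every group.

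TNFA signals through its receptors to the kinases that degrade the IκB inhibitors, which frees NF-κB dimers to enter the nucleus. IL1B reaches the same kinases from the IL-1 receptor through MyD88 and the IRAK proteins. In endothelium these signals are known for inducing chemokines, leukocyte adhesion molecules and tissue-remodelling enzymes. Endothelial cells can also respond to interferon made during such a stimulus, through STAT proteins and the interferon regulatory factors.

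The 4 WT libraries held 23836723 to 26944030 counts, and of 52636 genes measured 15698 had enough counts for testing. All 10 endothelial markers examined, among them Cdh5, Pecam1, Kdr and Erg, reached at least 1 CPM in each of the 4 libraries; markers of the liver sinusoid are described further on. Among the markers of other cell types, the leukocyte genes Ptprc, Adgre1, Clec4f, Cd3e, Nkg7 and Tyrobp and the hepatocyte genes Alb, Ttr, Apob and Hnf4a had 0 counts in all 4 libraries. The summed level of the leukocyte markers was 6.65 and 7.38 CPM in the control libraries and 9.22 and 8.76 CPM with cytokines, and 0 of its 6 tested members passed the threshold. The summed level of stellate cell, pericyte and fibroblast markers was 9198 and 9321 CPM in the control libraries and 10800 and 9908 CPM with cytokines, most of it Dcn, which encodes the matrix proteoglycan decorin and had 9024 and 9174 CPM in the control libraries and 10580 and 9764 CPM with cytokines. Decorin is a product of mesenchymal cells. Pdgfra, a receptor for platelet-derived growth factor that marks mesenchymal cells, had 2.07 and 3.67 CPM without and 32.2 and 25.4 CPM with cytokines. The related Pdgfrb had 3.25 and 4.55 CPM without and 27.8 and 23.9 CPM with cytokines. Both rose. Colec11, a further marker of the list, fell, with 21.8 and 19.3 CPM without and 0.838 and 1.26 CPM with cytokines. Of 9 tested stellate markers 2 rose and 1 fell, and the median log2 change was -0.76. Their part in the results below was not tested. Hepatocyte markers summed to 4.47 and 4.48 CPM in the control libraries and 2.42 and 1.69 CPM with cytokines, with 1 of 2 tested members lower, and cholangiocyte and mesothelial markers to 15.1 and 17.1 CPM in the control libraries and 5.78 and 5.85 CPM with cytokines, with 1 of 5 higher and 1 lower. Mitochondrial transcripts summed to 8563 and 7032 CPM in the control libraries and 8468 and 8320 CPM with cytokines, with 0 of 6 past the threshold. Replicate 1 of both WT groups held almost no Xist and replicate 2 held it at 633 CPM without and 454 CPM with cytokines. The Y-linked Ddx3y had 118 and 0.0337 CPM in the control libraries and 110.2 and 0.0393 CPM with cytokines. The high and low libraries thus follow the replicate number and not the treatment. By these genes, WT replicate 1 was male and WT replicate 2 female.

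Cytokines raised 1526 genes, 9.72% of those tested, and lowered 1207, 7.69%, at an adjusted p of 0.05 (edgeR quasi-likelihood test with Benjamini-Hochberg adjustment over all genes, the source of every adjusted p given here unless another fit is named). Of these, 683 were at least 2-fold higher and 599 at least 2-fold lower, 364 and 206 at least 4-fold, and 166 and 69 at least 10-fold. The genes that rose made up 13.9% and 14.0% of all CPM in the control libraries and 30.5% and 28.3% with cytokines, and the genes that fell made up 11.8% and 11.5% and then 4.91% and 5.08%. All 2733 genes moved the same way in replicate 1 and in replicate 2, but they were called on these same libraries, so this is no replication. Among all 15698 tested genes, 6180 rose and 6322 fell in both replicate numbers. Across all tested genes, which are not independent replicates, the log2 changes of the 2 replicate numbers had a Pearson correlation of 0.883 and a Spearman correlation of 0.788. With the replicate number as a block within each genotype, 3033 genes (19.3%) were higher and 2910 (18.5%) were lower, and these included 1523 of the 1526 and 1206 of the 1207. The counts rest on few libraries. Without WT control replicate 1, WT control replicate 2, WT cytokine replicate 1 or WT cytokine replicate 2, the genes higher numbered 210, 259, 398 and 635 and the genes lower 203, 254, 230 and 358, with the lone library left in a group assumed to vary like the others. Counts of lists in these 4 fits are given below in the same order of libraries left out, or as 1 number where all 4 fits gave it. Lack of overlap between treated and control libraries, given for single genes below, was common. Of all 15698 tested genes, 5378 had both treated libraries above both controls and 5326 had both below. By itself it does not set a gene apart. The changes are relative to the library as a whole, and fewer cells of a type and less RNA per cell cannot be told apart in bulk samples.

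**Figure D1:**
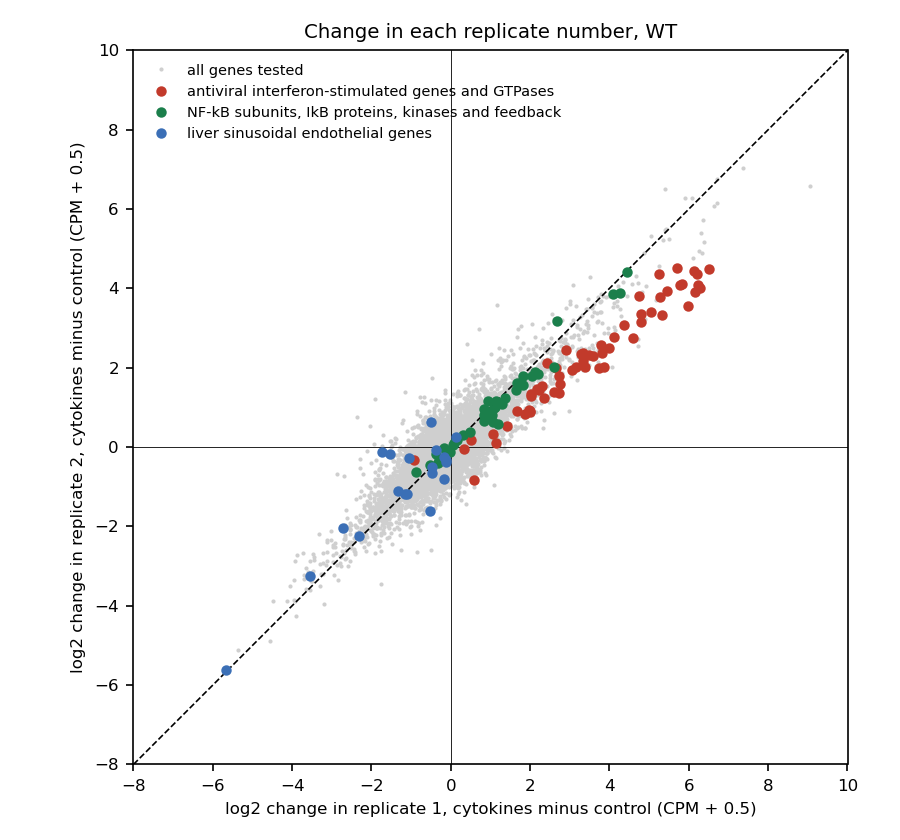
Log2 change with cytokines (CPM plus 0.5) in WT replicate 1 on the horizontal axis and in WT replicate 2 on the vertical axis, 1 point per tested gene, with antiviral genes and interferon-inducible GTPases in red, NF-κB subunits and feedback genes in green and liver sinusoidal endothelial genes in blue. The dashed line marks equal change, and red points lie mostly to its right, with median changes of 3.16 in replicate 1 and 2.01 in replicate 2 for the antiviral genes.

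Promoter sequences of genes that rose are shown because the sites bound by NF-κB and by interferon-activated factors lie close to many such genes. The sequences run 5′ to 3′ on the gene's strand from 250 bases before to 50 bases after the start of transcription, are taken from RefSeq (GRCm38.p6), and have in capitals each match to the NF-κB consensus, to the core of the interferon-stimulated response element (ISRE) or to the STAT-binding GAS motif TTCNNNGAA, searched on both strands and merged where they overlap. Cxcl10 encodes a chemokine for T cells, Cxcl1 a chemokine for neutrophils, Nfkbia the inhibitor IκBα, Irf1 an interferon regulatory factor, Gbp2 a guanylate-binding protein and Isg15 a ubiquitin-like protein.
Cxcl10 (chr5:92348840-92349139, minus strand): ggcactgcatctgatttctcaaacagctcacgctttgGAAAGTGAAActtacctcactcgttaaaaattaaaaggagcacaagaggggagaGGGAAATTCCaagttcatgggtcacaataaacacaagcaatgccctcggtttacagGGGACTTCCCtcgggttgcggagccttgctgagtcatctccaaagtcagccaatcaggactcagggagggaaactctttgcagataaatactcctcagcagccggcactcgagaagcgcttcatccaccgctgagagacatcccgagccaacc
Cxcl1 (chr5:90890995-90891294, plus strand): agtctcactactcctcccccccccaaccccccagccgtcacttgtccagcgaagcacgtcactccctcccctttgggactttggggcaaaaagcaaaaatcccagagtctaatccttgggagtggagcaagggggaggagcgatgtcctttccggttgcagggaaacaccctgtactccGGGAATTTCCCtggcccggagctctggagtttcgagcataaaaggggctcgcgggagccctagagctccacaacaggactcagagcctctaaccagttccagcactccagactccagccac
Nfkbia (chr12:55492598-55492897, minus strand): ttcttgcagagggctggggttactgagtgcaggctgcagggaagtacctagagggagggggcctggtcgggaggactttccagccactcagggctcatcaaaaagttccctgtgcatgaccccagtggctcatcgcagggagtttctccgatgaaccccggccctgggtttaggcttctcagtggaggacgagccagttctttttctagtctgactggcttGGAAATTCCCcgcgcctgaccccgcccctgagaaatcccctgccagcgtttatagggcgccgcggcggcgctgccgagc
Irf1 (chr11:53769764-53770063, plus strand): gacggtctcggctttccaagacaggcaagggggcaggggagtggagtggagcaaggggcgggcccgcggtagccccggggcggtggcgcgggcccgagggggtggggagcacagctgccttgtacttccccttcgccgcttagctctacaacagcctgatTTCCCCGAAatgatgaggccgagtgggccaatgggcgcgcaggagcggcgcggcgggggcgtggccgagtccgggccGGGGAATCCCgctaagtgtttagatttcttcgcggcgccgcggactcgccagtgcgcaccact
Gbp2 (chr3:142620413-142620712, plus strand): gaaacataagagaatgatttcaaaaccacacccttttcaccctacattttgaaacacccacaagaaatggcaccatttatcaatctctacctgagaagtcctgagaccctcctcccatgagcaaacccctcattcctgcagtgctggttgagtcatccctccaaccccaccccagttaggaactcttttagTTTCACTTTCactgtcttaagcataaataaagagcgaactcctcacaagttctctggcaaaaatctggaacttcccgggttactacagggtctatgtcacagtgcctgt
Isg15 (chr4:156200769-156201068, minus strand): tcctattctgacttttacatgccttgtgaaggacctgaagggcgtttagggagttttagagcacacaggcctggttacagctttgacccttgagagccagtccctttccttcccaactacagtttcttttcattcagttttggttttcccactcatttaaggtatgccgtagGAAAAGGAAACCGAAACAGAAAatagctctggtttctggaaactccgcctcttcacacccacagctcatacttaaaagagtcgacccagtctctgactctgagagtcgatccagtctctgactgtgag
Cxcl10 carried 1 ISRE match followed by 2 NF-κB matches, Cxcl1 2 overlapping NF-κB matches, 1 on each strand and offset by 1 base, Nfkbia 1 NF-κB match, Irf1 an NF-κB and a GAS match, Gbp2 an ISRE match and Isg15 3 overlapping ISRE matches. A second listed start of Irf1 had none of the 3 motifs, and Vcam1, Ccl5 and Mx1 are named only. The 6 genes were printed to show the motifs and are not typical of genes that rose, most of which had no match. The windows of Birc2, Birc3, Irf7 and Cx3cl1, which also rose, held none.

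Promoters on chromosome 18 were not searched, so genes there, Tslp among them, are not in these shares. Over all 27025 genes with a searched promoter in that table, 5.14% had an NF-κB match, 3.99% an ISRE match and 9.55% a GAS match. NF-κB matches were in 6.46% of the 11162 tested genes that could be matched by symbol, in 10.4% of the 1167 that rose, in 16.7% of the 240 that rose at least 4-fold, and in 6.37% of the 910 that fell. ISRE matches were in 3.75% of tested genes, 8.74% of those that rose, 17.5% of those that rose at least 4-fold and 2.31% of those that fell. GAS matches differed less, with 8.22%, 9.08%, 10.8% and 8.57% in the same order. By list, an ISRE match was in 9 of 10 interferon-inducible GTPase genes with a promoter in the table and in 13 of 32 antiviral genes, and an NF-κB match in 6 of 12 genes of NF-κB subunits, IκB proteins and kinases and in 4 of 9 CXC chemokine genes. A match describes the letters of these windows and shows no binding.

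**Figure D2:**
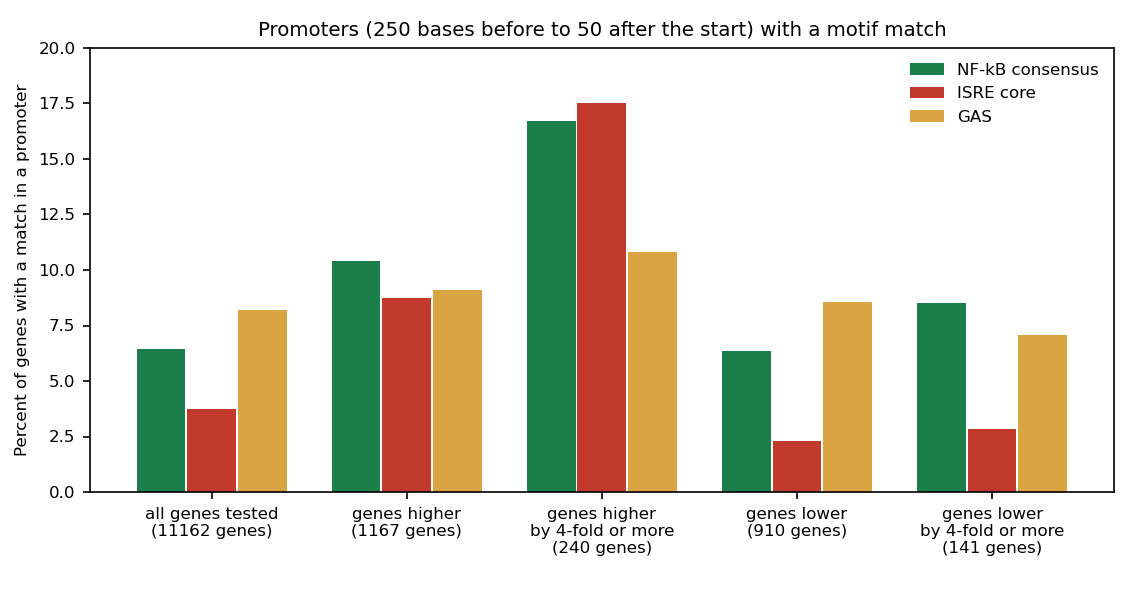
Percent of genes (vertical axis) whose promoter window holds a match to the NF-κB consensus, the ISRE core or the GAS motif, in bars for sets of genes by their change with cytokines. NF-κB matches stand at 16.7% and ISRE matches at 17.5% among genes that rose at least 4-fold, against 6.46% and 3.75% of tested genes.

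The receptors and adaptors that receive TNFA and IL1B changed in part. Of 27 tested members, 8 rose and 1 fell (12 higher and 2 lower with the replicate block), with a median log2 change of 0.24 against -0.01 over all genes tested. Tnfrsf1b, TNF receptor 2, had 23.2 and 24.3 CPM in the control libraries and 51.99 and 44.3 CPM with cytokines (log2 fold change 1.02, SE 0.25, adjusted p = 0.0404). Tnfrsf1a, TNF receptor 1, had 444 and 481 CPM without and 296 and 294 CPM with cytokines (log2 fold change -0.65, SE 0.10, adjusted p = 0.0105). The 2 receptors thus moved in opposite directions, and in neither did the treated and control libraries overlap. The signalling chain Il1r1 had 239 and 239.8 CPM in the control libraries and 301 and 284 CPM with cytokines (log2 fold change 0.29, SE 0.13, adjusted p = 0.163; with the replicate block 0.29, SE 0.087, adjusted p = 0.0323). Its partner chain Il1rap had 9.93 and 10.6 CPM in the control libraries and 11.2 and 13.1 CPM with cytokines (log2 fold change 0.24, SE 0.19, adjusted p = 0.437). Birc2 and Birc3, ubiquitin ligases of the TNF receptor complex, and Traf1, an adaptor that binds them, lie further inside the cell. Birc3 had 86.3 and 82.01 CPM in the control libraries and 259 and 274 CPM with cytokines (log2 fold change 1.66, SE 0.16, adjusted p = 0.00279). Birc2 had 123 and 129.9 CPM in the control libraries and 372 and 407 CPM with cytokines (log2 fold change 1.62, SE 0.10, adjusted p = 0.0011). Traf1 had 45.05 and 47.9 CPM in the control libraries and 179 and 141 CPM with cytokines (log2 fold change 1.78, SE 0.36, adjusted p = 0.0236). All 3 had both treated libraries above both controls. On the IL-1 side, Myd88 had 41.4 and 41.5 CPM in the control libraries and 68.4 and 51.5 CPM with cytokines (log2 fold change 0.53, SE 0.14, adjusted p = 0.0466); 11.3% of its exon bases overlap another tested gene. Irak3, which restrains IRAK signalling, had 28.5 and 27.7 CPM in the control libraries and 60.5 and 63.3 CPM with cytokines (log2 fold change 1.14, SE 0.08, adjusted p = 0.00123). The counts of higher members were 4, 3, 4 and 5 with 1 WT library left out, and Birc2, Birc3 and Irak3 passed in each of those fits.

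Genes of the NF-κB system itself rose broadly. Of 16 tested members, 11 rose and 0 fell, with a median log2 change of 1.01, 1.01 in replicate 1 and 0.99 in replicate 2. Among the subunits, Relb had 66.98 and 61.4 CPM in the control libraries and 236 and 213 CPM with cytokines (log2 fold change 1.81, SE 0.10, adjusted p = 0.00093). Nfkb2, which encodes its p100 and p52 partner, had 114 and 109.9 CPM in the control libraries and 353 and 297 CPM with cytokines (log2 fold change 1.54, SE 0.15, adjusted p = 0.0029). Both proteins act together in the alternative pathway. Rela had 133 and 133 CPM in the control libraries and 276 and 233 CPM with cytokines (log2 fold change 0.93, SE 0.14, adjusted p = 0.00888). Nfkb1 had 252 and 258 CPM in the control libraries and 495 and 444 CPM with cytokines (log2 fold change 0.88, SE 0.13, adjusted p = 0.00931). The subunits of the alternative pathway, Relb and Nfkb2, had the larger fitted changes of these 4. Rel, the remaining subunit, had 21.1 and 13.3 CPM in the control libraries and 40.5 and 30.4 CPM with cytokines and passed with the block but not without it (log2 fold change 1.04, SE 0.28, adjusted p = 0.0502; with the replicate block 1.06, SE 0.14, adjusted p = 0.000659). Among the inhibitors, Nfkbia had 396 and 361 CPM in the control libraries and 1257 and 1109 CPM with cytokines (log2 fold change 1.64, SE 0.14, adjusted p = 0.00236). Nfkbie, IκBε, had 48.3 and 54.4 CPM in the control libraries and 212 and 204 CPM with cytokines (log2 fold change 2.02, SE 0.16, adjusted p = 0.00205). Both inhibitors were higher in both treated libraries. Bcl3, a nuclear IκB protein, had 64.99 and 63.3 CPM in the control libraries and 168 and 149 CPM with cytokines (log2 fold change 1.31, SE 0.091, adjusted p = 0.00123). In each of these genes that passed, the 2 treated libraries lay above the 2 controls. The core kinases Chuk and Ikbkb and the scaffold Ikbkg did not pass, with log2 changes of 0.17, 0.30 (with the replicate block 0.30, SE 0.075, adjusted p = 0.0154) and -0.091, while the related kinases Ikbke and Tbk1 rose by 1.16 and 0.75. With 1 WT library left out, 7, 7, 8 and 11 members were higher, and Relb, Nfkb2, Nfkbia, Nfkbie, Bcl3 and Ikbke passed each time.

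Negative regulators that NF-κB induces rose alongside. In the list of feedback and TNF-induced genes, 12 of 23 rose and 1 fell (14 higher and 4 lower with the replicate block), with a median of 0.91. Tnfaip3, the ubiquitin-editing enzyme A20, had 53.9 and 46.4 CPM in the control libraries and 928 and 675 CPM with cytokines (log2 fold change 4.00, SE 0.32, adjusted p = 0.00223). Zfp36, which binds AU-rich messenger RNA and promotes its decay, had 22.2 and 19.4 CPM in the control libraries and 92.3 and 68.5 CPM with cytokines (log2 fold change 1.95, SE 0.20, adjusted p = 0.00345). Zc3h12a, a ribonuclease that cuts inflammatory transcripts, had 46.05 and 47.6 CPM in the control libraries and 100.1 and 96.1 CPM with cytokines (log2 fold change 1.07, SE 0.19, adjusted p = 0.0156). These 3 genes had no overlap between groups, with the widest gap in Tnfaip3. Tnip1, a partner of A20, had 440.5 and 516 CPM in the control libraries and 1562 and 1537 CPM with cytokines (log2 fold change 1.70, SE 0.31, adjusted p = 0.016). Rnf19b, an E3 ubiquitin ligase, had 23.7 and 24.9 CPM in the control libraries and 110.3 and 90.9 CPM with cytokines (log2 fold change 2.05, SE 0.12, adjusted p = 0.000949). The deubiquitinases Cyld and Otulin had log2 changes of 0.091 and -0.29 and did not pass. Among suppressors of cytokine signalling, Socs1 rose by 1.05, Socs2 fell by 0.54 on the log2 scale and Socs3 had 242 and 238 CPM in the control libraries and 131 and 155 CPM with cytokines (log2 fold change -0.75, SE 0.32, adjusted p = 0.159; with the replicate block -0.76, SE 0.091, adjusted p = 0.000449). Feedback genes higher numbered 6, 6, 7 and 9 with 1 WT library left out. Tnfaip3, Zfp36 and Rnf19b passed in all 4 of those fits.

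AP-1 and immediate early genes encode transcription factors usually induced within the first hour, and the cells were collected at 16 hours. Of 21 tested, 6 rose and 0 fell (median 0.93); with the replicate block 13 were higher and 1 lower. Jund had 22.97 and 25.6 CPM in the control libraries and 66.5 and 58.9 CPM with cytokines (log2 fold change 1.37, SE 0.12, adjusted p = 0.0027). Junb had 138 and 113 CPM in the control libraries and 257 and 219 CPM with cytokines (log2 fold change 0.93, SE 0.14, adjusted p = 0.00864). Batf2, a partner of Jun proteins, had 4.65 and 3.13 CPM in the control libraries and 24.9 and 9.54 CPM with cytokines (log2 fold change 2.14, SE 0.46, adjusted p = 0.0259). Jund had its groups well apart, and Batf2 was low in both control libraries. Fos had 20.4 and 20.2 CPM in the control libraries and 13.5 and 10.7 CPM with cytokines (log2 fold change -0.75, SE 0.33, adjusted p = 0.17; in the 4 WT libraries alone -0.76, SE 0.15, adjusted p = 0.0181). Egr1 had 40.6 and 35.1 CPM in the control libraries and 77.1 and 70.5 CPM with cytokines (log2 fold change 0.96, SE 0.27, adjusted p = 0.0569; with the replicate block 0.97, SE 0.13, adjusted p = 0.00128). The members higher numbered 2, 1, 1 and 3 with 1 WT library left out, with Jund passing each time.

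CXC chemokines, secreted attractants of neutrophils and T cells, had the largest median change of the lists. Of 12 tested members, 10 rose and 0 fell, with a median log2 change of 5.28. Cxcl1 (ENSMUSG00000029380, GRCm38 chromosome 5, 90891241 to 90893115, plus strand), with the NF-κB matches printed above, had 56.3 and 136 CPM in the control libraries and 540.4 and 1319 CPM with cytokines (log2 fold change 3.27, SE 0.64, adjusted p = 0.0228). Further ligands of the neutrophil receptor CXCR2 followed. Cxcl2 had 24.9 and 53.1 CPM in the control libraries and 2104 and 1912 CPM with cytokines (log2 fold change 5.69, SE 0.43, adjusted p = 0.0019). Cxcl3 had 3.62 and 5.22 CPM in the control libraries and 433 and 406 CPM with cytokines (log2 fold change 6.57, SE 0.27, adjusted p = 0.000582). In these 3 genes the groups did not overlap. Cxcl5, another of these ligands, had 72.8 and 203 CPM in the control libraries and 5936 and 6056 CPM with cytokines (log2 fold change 5.44, SE 0.54, adjusted p = 0.00363). The same held for Cxcl5, and for Cxcl1 replicate 2 was the higher library in both groups. Per kilobase of exon, mean levels with cytokines were 496 CPM for Cxcl1, 3219 for Cxcl5, 971 for Cxcl2 and 120.0 for Cxcl3. Some chemokines of the list are tethered to the cell surface. Cx3cl1, the membrane-bound chemokine fractalkine, had 66.3 and 37.5 CPM in the control libraries and 599 and 443 CPM with cytokines (log2 fold change 3.33, SE 0.51, adjusted p = 0.0116). Cxcl16, another transmembrane chemokine, had 172 and 171 CPM in the control libraries and 407 and 349 CPM with cytokines (log2 fold change 1.14, SE 0.13, adjusted p = 0.00402). Cxcl12, which retains haematopoietic cells through CXCR4, had 7.57 and 40.2 CPM in the control libraries and 3.97 and 6.05 CPM with cytokines, so its groups did not overlap, but it did not pass without the block (log2 fold change -2.25, SE 0.96, adjusted p = 0.166; with the replicate block -1.98, SE 0.48, adjusted p = 0.0435). The members higher numbered 6, 6, 8 and 8 with 1 WT library left out, and Cxcl2, Cxcl3, Cxcl5 and Cxcl16 passed each time.

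CC chemokines rose in 6 of 16 tested members and fell in 1 (median 2.81), and 10 were higher with the replicate block. Ccl2, the monocyte attractant MCP-1, had 1585 and 1624 CPM in the control libraries and 10330 and 8680 CPM with cytokines (log2 fold change 2.57, SE 0.21, adjusted p = 0.00204). Ccl7, which also acts on monocytes, had 171 and 191 CPM in the control libraries and 3105 and 2259 CPM with cytokines (log2 fold change 3.89, SE 0.21, adjusted p = 0.0009). Ccl20, a ligand for CCR6, had 1.699 and 2.43 CPM in the control libraries and 93.6 and 131 CPM with cytokines (log2 fold change 5.76, SE 0.84, adjusted p = 0.0109). Ccl2 was already abundant without cytokines, whereas Ccl20 was near 0 in the control libraries. Per kilobase, Ccl2 had 1410 CPM in control and 8354 CPM with cytokines, and Ccl7 226 and 3348. Ackr4, a scavenging receptor for other CC chemokines, fell, with 1.99 and 1.45 CPM in the control libraries and 0.221 and 0.118 CPM with cytokines (log2 fold change -3.32, SE 0.55, adjusted p = 0.0124). Members higher numbered 4, 4, 4 and 5 with 1 WT library left out, and Ccl2 and Ccl7 passed in each of those fits; Ackr4 passed in 0 of 4.

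Interleukins and colony-stimulating factors rose in 10 of 22 tested members, with 0 lower (median 1.95; 14 higher and 1 lower with the replicate block). Il6 had 7.87 and 5.09 CPM in the control libraries and 101 and 67.2 CPM with cytokines (log2 fold change 3.70, SE 0.35, adjusted p = 0.00341). Tslp, an epithelial and stromal cytokine that acts on dendritic cells, had 13.6 and 7.92 CPM in the control libraries and 1480 and 918 CPM with cytokines (log2 fold change 6.80, SE 0.67, adjusted p = 0.00392). The groups of both lay far apart. Tnf itself had 0.443 and 0.472 CPM in the control libraries and 22.1 and 16.4 CPM with cytokines (log2 fold change 5.38, SE 0.36, adjusted p = 0.0012). It was near 0 in control and higher in both treated libraries. The growth factors of the myeloid lineages followed. Csf1 had 719.7 and 758 CPM in the control libraries and 3553 and 2620 CPM with cytokines (log2 fold change 2.06, SE 0.25, adjusted p = 0.00484). Csf3 had 392 and 756 CPM in the control libraries and 2156 and 2980 CPM with cytokines (log2 fold change 2.16, SE 0.37, adjusted p = 0.0136). Csf2 had 3.32 and 6.24 CPM in the control libraries and 304 and 282 CPM with cytokines (log2 fold change 5.93, SE 1.45, adjusted p = 0.0428). All 3 had treated libraries above controls; Csf1 was abundant in both groups and Csf2 was near 0 in control, with 12% of its exon bases shared with another tested gene. Il1a rose, with 3.88 and 3.61 CPM in the control libraries and 7.98 and 7.19 CPM with cytokines (log2 fold change 1.02, SE 0.20, adjusted p = 0.0185). Il1b, with 0 and 0.0337 CPM in the control libraries and 0.176 and 0.118 CPM with cytokines, was too low to read (adjusted p = 0.273). Among the remaining members are a lymphocyte factor and an alarmin. Il15, a survival factor for lymphocytes, had 12.8 and 15.8 CPM in the control libraries and 28.2 and 16.4 CPM with cytokines (log2 fold change 0.64, SE 0.36, adjusted p = 0.27). The alarmin Il33 had 1.699 and 2.697 CPM in the control libraries and 0.661 and 1.69 CPM with cytokines (log2 fold change -0.89, SE 1.19, adjusted p = 0.658). With 1 WT library left out, 3, 5, 6 and 5 members were higher, and Il6, Tslp and Tnf passed each time.

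**Figure D3:**
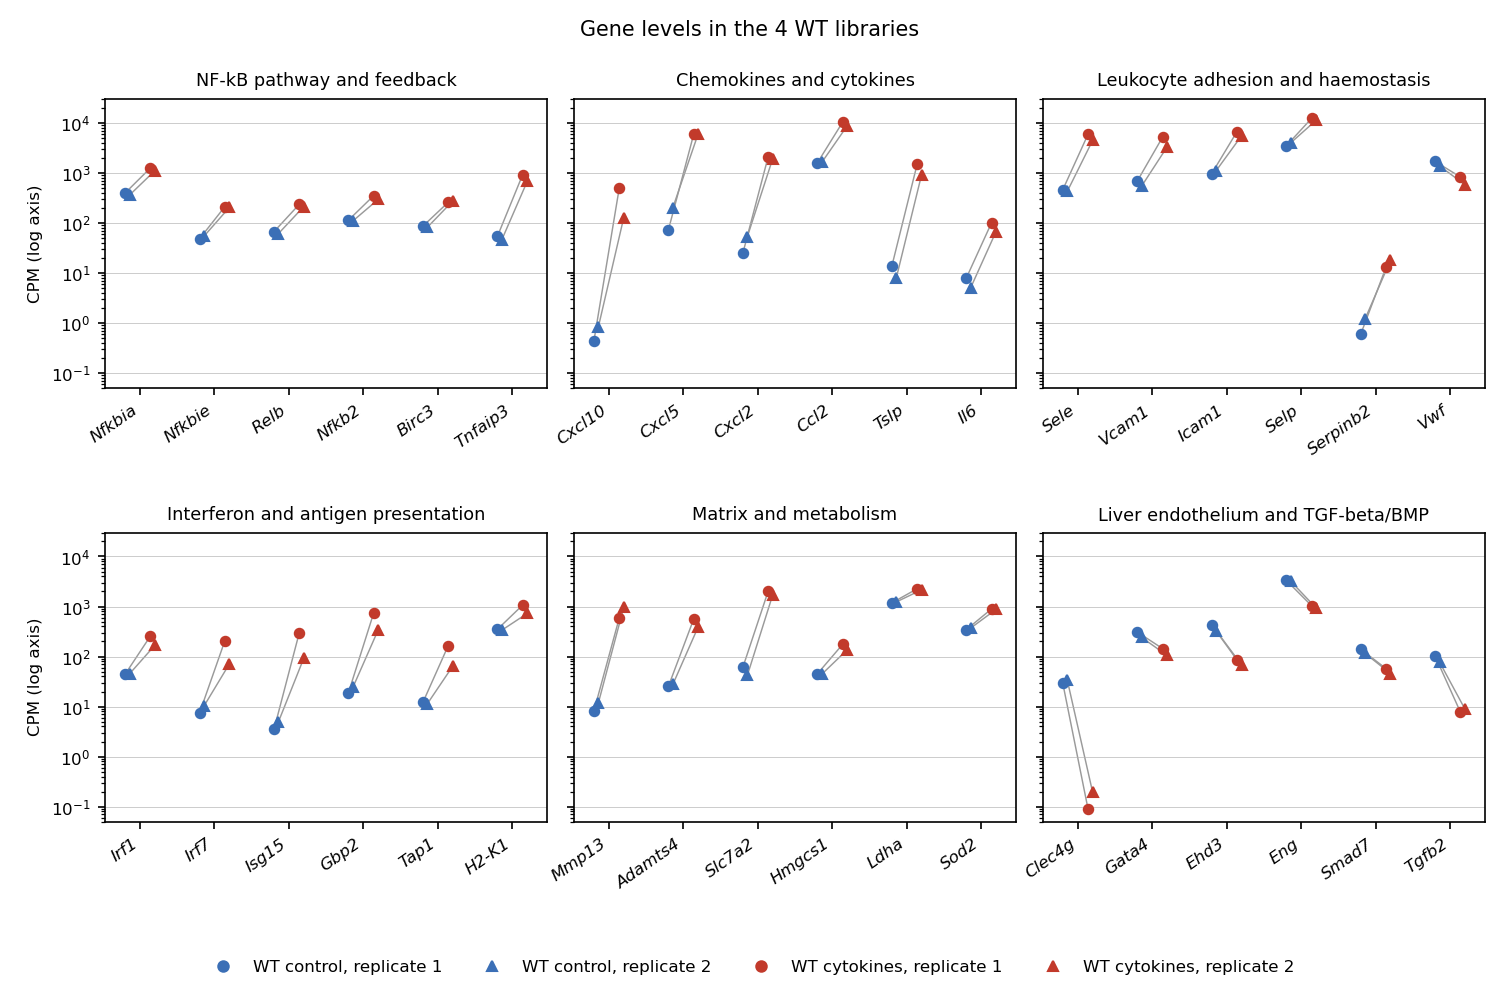
CPM on a log axis in each WT library for 36 genes in 6 panels, with control in blue and cytokines in red, replicate 1 as circles and replicate 2 as triangles, and grey lines joining the same replicate number. Cxcl10, Cxcl5 and Ccl2 lie higher in both cytokine libraries, and Clec4g lies lower, at 0.0882 and 0.196 CPM against 29.2 and 33.9 CPM.

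Adhesion molecules that leukocytes bind on endothelium rose in 6 of 19 tested members and fell in 0 (median 0.38; 9 higher and 4 lower with the replicate block). Vcam1 (ENSMUSG00000027962, GRCm38 chromosome 3, 116109949 to 116129688, minus strand), the ligand of integrin α4β1, had 686 and 548 CPM in the control libraries and 5184 and 3291 CPM with cytokines (log2 fold change 2.78, SE 0.30, adjusted p = 0.0039). Icam1, the ligand of leukocyte β2 integrins, had 968 and 1111 CPM in the control libraries and 6707 and 5497 CPM with cytokines (log2 fold change 2.55, SE 0.33, adjusted p = 0.0061). Selp, P-selectin, had 3461 and 3976 CPM in the control libraries and 12250 and 11230 CPM with cytokines (log2 fold change 1.66, SE 0.40, adjusted p = 0.0355). Vcam1, Icam1 and Selp all had treated libraries above controls; 14.1% of Selp exon bases are shared with another tested gene. The members that did not pass included Icam2, with a log2 change of 1.06 (with the replicate block 1.05, SE 0.10, adjusted p = 0.000105), Cd34, with 0.38, and Esam, with -0.29 (in the 4 WT libraries alone -0.30, SE 0.084, adjusted p = 0.0451). Pecam1, CD31, on which the cells were sorted, had 1607 and 1560 CPM in the control libraries and 797 and 830.3 CPM with cytokines (log2 fold change -0.96, SE 0.41, adjusted p = 0.159; with the replicate block -0.96, SE 0.13, adjusted p = 0.000811). Its values describe sorted cells only. Members higher numbered 1, 1, 2 and 3 with 1 WT library left out, and Vcam1 passed in each of those fits.

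Coagulation and fibrinolysis genes split. Of 23 tested, 4 rose and 4 fell (median -0.46), and 6 were higher and 10 lower with the replicate block. Inhibitors of plasminogen activation or of thrombin were among those that rose. Serpinb2, PAI-2, had 0.591 and 1.21 CPM in the control libraries and 12.9 and 17.8 CPM with cytokines (log2 fold change 4.07, SE 0.38, adjusted p = 0.00333). Serpine2, protease nexin-1, had 32.7 and 36.8 CPM in the control libraries and 314 and 293 CPM with cytokines (log2 fold change 3.13, SE 0.29, adjusted p = 0.00283). Neither gene overlapped between groups. F3, tissue factor, fell, with 22.4 and 25.1 CPM in the control libraries and 12.9 and 13.2 CPM with cytokines (log2 fold change -0.86, SE 0.22, adjusted p = 0.0432). Vwf, the platelet-binding von Willebrand factor, fell, with 1693 and 1380 CPM in the control libraries and 828 and 579 CPM with cytokines (log2 fold change -1.13, SE 0.25, adjusted p = 0.0283). Both genes promote haemostasis and both were lower in both treated libraries. Thbd, thrombomodulin, had 153 and 160.0 CPM in the control libraries and 97.3 and 80.1 CPM with cytokines (log2 fold change -0.82, SE 0.29, adjusted p = 0.104; with the replicate block -0.83, SE 0.17, adjusted p = 0.0139). Procr, the protein C receptor, had 675 and 779.8 CPM in the control libraries and 726 and 668 CPM with cytokines (log2 fold change -0.061, SE 0.25, adjusted p = 0.9). Members higher numbered 2 and members lower 0 with 1 WT library left out; Serpinb2 and Serpine2 passed each time.

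Enzymes of prostanoid and nitric oxide synthesis also split, with 7 of 17 higher and 2 lower, and 9 higher and 5 lower with the replicate block. Nos2, the inducible nitric oxide synthase, had 3.84 and 2.33 CPM in the control libraries and 258 and 220.4 CPM with cytokines (log2 fold change 6.28, SE 0.59, adjusted p = 0.0036). Nos3, the endothelial synthase, had 20.6 and 22.6 CPM in the control libraries and 16.1 and 24.97 CPM with cytokines (log2 fold change -0.073, SE 1.45, adjusted p = 0.983). Gch1, which makes their cofactor tetrahydrobiopterin, had 67.1 and 65.02 CPM in the control libraries and 153 and 122 CPM with cytokines (log2 fold change 1.06, SE 0.16, adjusted p = 0.00924). Nos2 was near 0 without cytokines, and the groups of Nos3 overlapped. Ptges, prostaglandin E synthase, rose from 23.04 and 24.6 to 325 and 319.5 CPM (log2 fold change 3.76, SE 0.25, adjusted p = 0.00117). Ptgs1, the constitutive cyclooxygenase, fell, with 44.4 and 35.9 CPM in the control libraries and 9.79 and 7.22 CPM with cytokines (log2 fold change -2.24, SE 0.25, adjusted p = 0.00407). Ptgis, prostacyclin synthase, fell too, with 166 and 158 CPM in the control libraries and 97.6 and 91.7 CPM with cytokines (log2 fold change -0.78, SE 0.16, adjusted p = 0.0214). Ptges lay higher and Ptgs1 and Ptgis lower in both treated libraries. Edn1, the vasoconstrictor endothelin-1, had 749 and 923 CPM in the control libraries and 364 and 392 CPM with cytokines (log2 fold change -1.15, SE 1.44, adjusted p = 0.633; in the 4 WT libraries alone -1.16, SE 0.12, adjusted p = 0.00287). Members higher numbered 4, 3, 4 and 5 with 1 WT library left out, and Nos2, Ptges and Ptgs1 passed each time.

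The interferon system rose from receptor to target. Of 19 tested receptor, JAK, STAT and IRF genes, 11 rose and 0 fell (median 0.88). Ifnb1, interferon β, had too few counts to be tested. Ifnar1, a receptor chain for type I interferon, had 143 and 152 CPM in the control libraries and 298 and 315 CPM with cytokines (log2 fold change 1.06, SE 0.14, adjusted p = 0.00633). Ifngr1, one for interferon γ, had 97.04 and 105 CPM in the control libraries and 184 and 188 CPM with cytokines (log2 fold change 0.88, SE 0.17, adjusted p = 0.0203). Signals of these receptors pass through JAK kinases to STAT factors. Jak2 had 98.7 and 94.1 CPM in the control libraries and 577 and 485 CPM with cytokines (log2 fold change 2.46, SE 0.16, adjusted p = 0.0011). Stat2 had 50.3 and 47.8 CPM in the control libraries and 275 and 140.0 CPM with cytokines (log2 fold change 2.08, SE 0.31, adjusted p = 0.0099). Both had treated libraries above controls, and in both replicate 1 was the higher treated library. Irf1, whose promoter is printed above, had 44.3 and 45.2 CPM in the control libraries and 257 and 168 CPM with cytokines (log2 fold change 2.25, SE 0.20, adjusted p = 0.00241). Irf7, a factor that amplifies interferon production, had 7.46 and 10.3 CPM in the control libraries and 207 and 71.1 CPM with cytokines (log2 fold change 3.97, SE 0.53, adjusted p = 0.00834). Irf9, a partner of STAT proteins, had 32.05 and 39.98 CPM in the control libraries and 125 and 79.99 CPM with cytokines (log2 fold change 1.51, SE 0.24, adjusted p = 0.0116). Irf3 and Irf8 did not pass (log2 changes -0.22 and -0.04). Usp18, which removes ISG15 from proteins and dampens interferon signalling, had 1.66 and 1.08 CPM in the control libraries and 77.3 and 20.2 CPM with cytokines (log2 fold change 5.15, SE 0.74, adjusted p = 0.0097). Members higher numbered 2, 2, 8 and 9 with 1 WT library left out, and Jak2 and Irf1 passed each time.

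Antiviral interferon-stimulated genes rose in 34 of 41 tested members, with 0 lower and a median log2 change of 2.93. Isg15 (ENSMUSG00000035692, GRCm38 chromosome 4, 156199424 to 156200818, minus strand) had 3.51 and 4.99 CPM in the control libraries and 302 and 93.1 CPM with cytokines (log2 fold change 5.54, SE 0.71, adjusted p = 0.0078). Rsad2, the antiviral enzyme viperin, had 2.25 and 2.56 CPM in the control libraries and 202 and 62.04 CPM with cytokines (log2 fold change 5.77, SE 0.62, adjusted p = 0.00454). Ifit1, which binds viral RNA, had 2.95 and 3.98 CPM in the control libraries and 316 and 100.1 CPM with cytokines (log2 fold change 5.90, SE 0.74, adjusted p = 0.0073). All 3 had both treated libraries above both controls. Mx2, a gene of the dynamin-like antiviral family annotated as a polymorphic pseudogene, had 1.59 and 1.42 CPM in the control libraries and 108 and 43.1 CPM with cytokines (log2 fold change 5.64, SE 0.59, adjusted p = 0.00417). Ifi44 had 6.31 and 8.73 CPM in the control libraries and 188 and 80.9 CPM with cytokines (log2 fold change 4.16, SE 0.43, adjusted p = 0.00409). Each had both treated libraries far above both controls, and in each replicate 1 was the higher of the treated libraries. The rise was larger in replicate 1 than in replicate 2 for 40 of the 41 genes, with medians of 3.16 and 2.01. Over all 1526 genes that rose, 1118 had the larger change in replicate 1 (medians 0.89 and 0.78). Replicate 1 was also the number with almost no Xist, and the part of that difference between the libraries was not tested. The members that did not pass were Bst2, Ifitm1, Ifitm2, Trim25, Ifi27l2a, Sp100 and Pml. With 1 WT library left out, 4, 8, 26 and 33 members were higher.

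The interferon-inducible GTPases, which attack the membranes around intracellular pathogens, rose in 17 of 18 tested members (median 3.16), with a larger rise in replicate 1 for 18 of the 18 (medians 3.65 and 2.41). Gbp2 had 19.02 and 24.4 CPM in the control libraries and 756 and 344 CPM with cytokines (log2 fold change 4.66, SE 0.54, adjusted p = 0.00571). Gbp4 had 25.4 and 29.2 CPM in the control libraries and 985 and 608 CPM with cytokines (log2 fold change 4.87, SE 0.26, adjusted p = 0.000913). Both Gbp genes were higher in both treated libraries, more so in replicate 1. In the immunity-related group, Iigp1 had 33.5 and 29.2 CPM in the control libraries and 473 and 178 CPM with cytokines (log2 fold change 3.37, SE 0.50, adjusted p = 0.0112). Irgm1 had 46.7 and 48.1 CPM in the control libraries and 320.0 and 145 CPM with cytokines (log2 fold change 2.29, SE 0.36, adjusted p = 0.012). The groups did not overlap in any of the 4. The only tested member that did not pass was Tgtp1, whose counts can be shared with its near-copy Tgtp2, and the same caution holds within the Gbp family. With 1 WT library left out, 4, 6, 14 and 16 members were higher, and Gbp4 passed each time.

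Pattern recognition receptors and inflammasome genes rose in 8 of 20 tested members and fell in 1 (median 0.65; 10 higher and 2 lower with the replicate block). Nod2, a sensor of bacterial muramyl dipeptide, had 4.95 and 5.596 CPM in the control libraries and 104 and 67.5 CPM with cytokines (log2 fold change 4.02, SE 0.32, adjusted p = 0.00225). Nlrp3, an inflammasome sensor, had 0.0369 and 0.101 CPM in the control libraries and 3.84 and 7.19 CPM with cytokines (log2 fold change 6.20, SE 0.66, adjusted p = 0.00366). Tlr2, a receptor for bacterial lipoproteins, had 71.4 and 76.5 CPM in the control libraries and 448 and 309 CPM with cytokines (log2 fold change 2.35, SE 0.33, adjusted p = 0.00842). Nlrp3 was near 0 in the control libraries. The sensors of viral RNA Ifih1 and Dhx58 rose by 2.28 and 3.08, and Mavs, their shared adaptor, fell, with 41.4 and 47.8 CPM in the control libraries and 23.6 and 29.9 CPM with cytokines (log2 fold change -0.73, SE 0.16, adjusted p = 0.0263). Tlr4 and the inflammasome parts Pycard and Casp1 did not pass (log2 changes -0.41, 0.065 and 0.23; Tlr4 with the replicate block -0.41, SE 0.12, adjusted p = 0.0309). Members higher numbered 3, 3, 7 and 7 with 1 WT library left out, and Nod2 and Nlrp3 passed each time.

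Genes of antigen presentation on MHC class I rose in 19 of 20 tested members (median 1.90; 2.24 in replicate 1 and 1.36 in replicate 2). H2-K1, a classical class I heavy chain, had 349.9 and 337 CPM in the control libraries and 1073 and 727 CPM with cytokines (log2 fold change 1.39, SE 0.19, adjusted p = 0.00711). B2m, the light chain, had 664 and 709 CPM in the control libraries and 1483 and 1193 CPM with cytokines (log2 fold change 0.96, SE 0.14, adjusted p = 0.00871). Tap1, which carries peptides into the endoplasmic reticulum, had 12.2 and 11.4 CPM in the control libraries and 166 and 64.2 CPM with cytokines (log2 fold change 3.28, SE 0.46, adjusted p = 0.00909). The groups of these 3 did not overlap. Psmb8, a catalytic subunit of the immunoproteasome, had 8.49 and 8.798 CPM in the control libraries and 83.2 and 37.03 CPM with cytokines (log2 fold change 2.80, SE 0.40, adjusted p = 0.00924). Psmb9, another, had 5.76 and 4.32 CPM in the control libraries and 64.3 and 26.1 CPM with cytokines (log2 fold change 3.16, SE 0.56, adjusted p = 0.0168). Nlrc5, the transactivator of class I genes, had 2.73 and 1.82 CPM in the control libraries and 29.2 and 10.6 CPM with cytokines (log2 fold change 3.13, SE 0.61, adjusted p = 0.0213). The treated libraries exceeded the controls in all of these. H2-T23 was the tested member that did not pass, and counts of H2-Q genes can be shared between near-copies. Of class II genes, 1 of 5 tested members rose, and their transactivator Ciita was not tested. Class I members higher numbered 2, 4, 8 and 16 with 1 WT library left out, and 0 of the 6 genes given here passed each time, though H2-Q4 and Psme1 did.

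Ligands that tune T cells rose in 6 of 12 tested members (median 0.79; 7 higher and 2 lower with the replicate block). Icosl, the ligand of the costimulator ICOS, had 27.7 and 17.02 CPM in the control libraries and 195 and 118 CPM with cytokines (log2 fold change 2.81, SE 0.39, adjusted p = 0.00903). Cd40 had 0.0369 and 0.101 CPM in the control libraries and 0.485 and 0.942 CPM with cytokines (log2 fold change 3.26, SE 0.62, adjusted p = 0.0181). Lgals9, galectin-9, had 58.9 and 69.8 CPM in the control libraries and 301 and 159 CPM with cytokines (log2 fold change 1.84, SE 0.30, adjusted p = 0.0132). Cd40 was low in every library, and the groups did not overlap in any of the 3. Members higher numbered 1, 0, 4 and 3 with 1 WT library left out.

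Complement genes passed in few members without the replicate block. Of 12 complement genes, Cfb alone rose, with 1.25 and 1.01 CPM in the control libraries and 8.202 and 9.27 CPM with cytokines (log2 fold change 2.94, SE 0.48, adjusted p = 0.0121); with the replicate block 4 were higher and 7 lower. Cfb encodes factor B, a protease of the alternative pathway, and its groups did not overlap. C3 had 1906 and 2267 CPM in the control libraries and 3159 and 3441 CPM with cytokines (log2 fold change 0.66, SE 0.42, adjusted p = 0.328; with the replicate block 0.67, SE 0.13, adjusted p = 0.00448). Of 14 acute phase and iron genes, 4 rose (7 higher and 1 lower with the replicate block), including Saa3, serum amyloid A3, with 480.3 and 509 CPM in the control libraries and 6849 and 7105 CPM with cytokines (log2 fold change 3.82, SE 0.54, adjusted p = 0.00838). It is secreted by many cell types in inflammation. Lcn2, which binds bacterial siderophores, had 1112 and 1440 CPM in the control libraries and 3639 and 3695 CPM with cytokines (log2 fold change 1.52, SE 0.34, adjusted p = 0.0288). Slc39a14, a zinc and iron importer, had 31.1 and 37.5 CPM in the control libraries and 216 and 220.5 CPM with cytokines (log2 fold change 2.67, SE 0.28, adjusted p = 0.00375). Lcn2 and Saa3 were abundant without cytokines and higher with them. Acute phase members higher numbered 1, 1, 3 and 2 with 1 WT library left out. Slc39a14 passed each time.

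**Figure D4:**
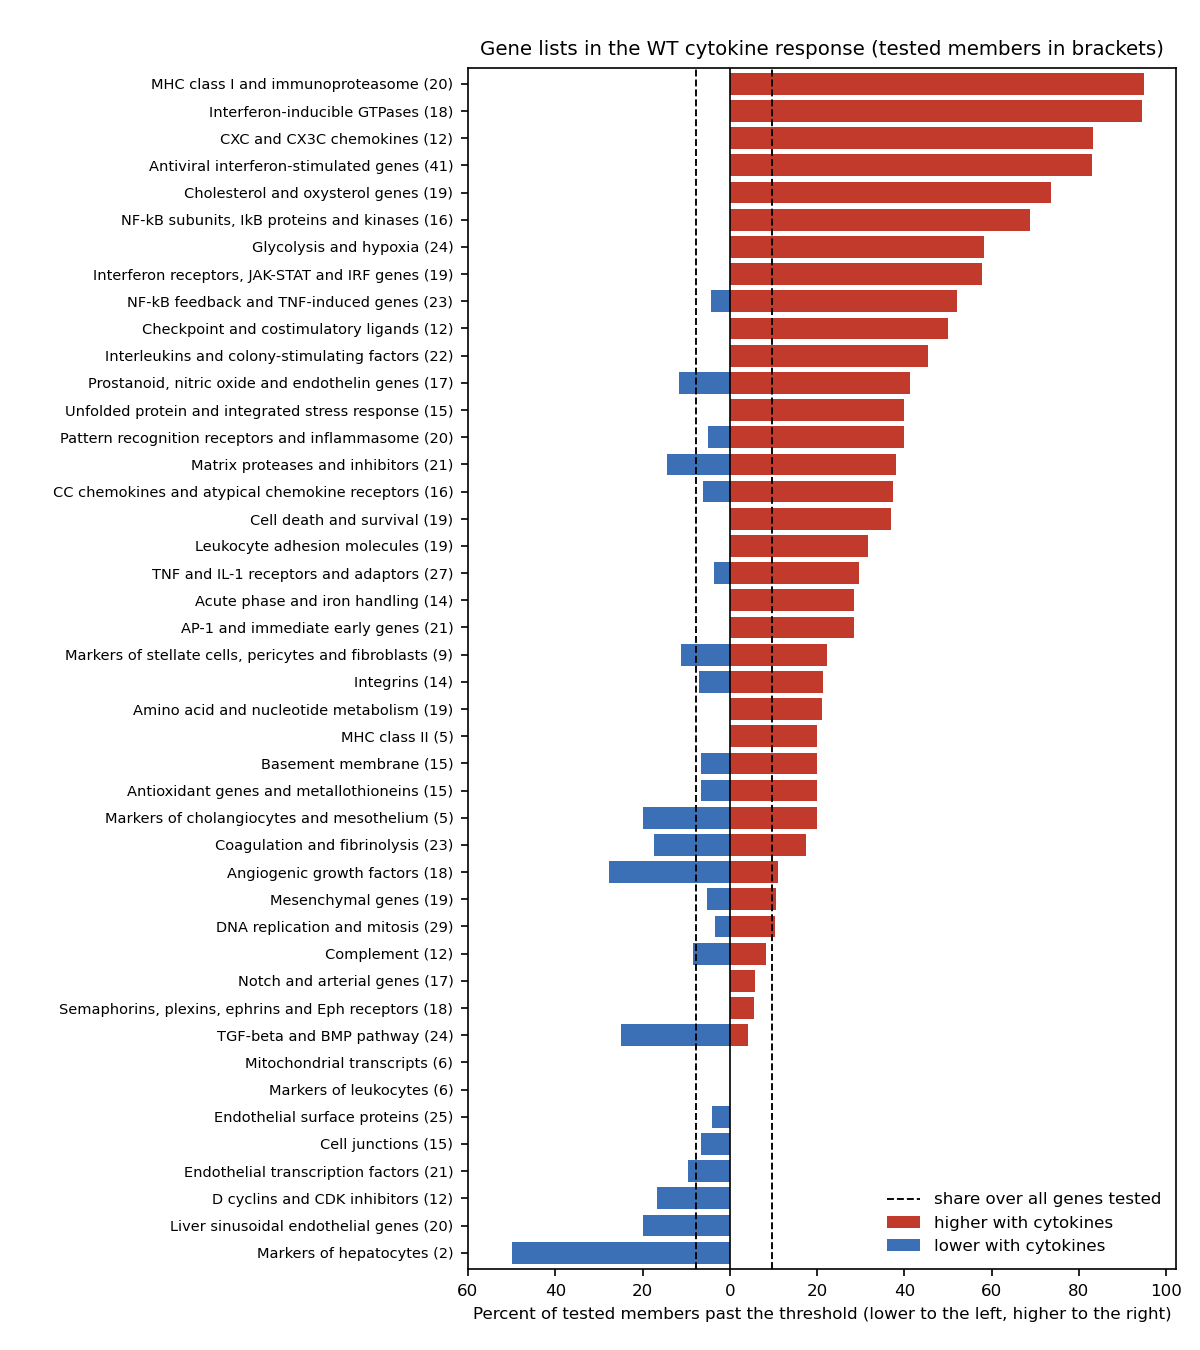
Percent of tested members higher (right) and lower (left) with cytokines in each of 44 gene lists, with dashed lines at the shares over all genes tested, 9.72% higher and 7.69% lower. Lists of interferon-inducible GTPases, MHC class I, antiviral genes and CXC chemokines extend furthest to the right.

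Metabolic genes differed between groups of genes. Among antioxidant genes and metallothioneins, 3 of 15 rose and 1 fell (median -0.29; 4 higher and 6 lower with the replicate block), and 9 of the fitted changes lay below 0. Sod2, the mitochondrial superoxide dismutase, had 344 and 371 CPM in the control libraries and 897 and 877 CPM with cytokines (log2 fold change 1.31, SE 0.14, adjusted p = 0.00363). Slc7a11, the cystine transporter, had 7.46 and 6.17 CPM in the control libraries and 86.9 and 88.5 CPM with cytokines (log2 fold change 3.69, SE 0.43, adjusted p = 0.00552). Both carried treated libraries above controls. Mt2, a metallothionein, had 0.591 and 0.809 CPM in the control libraries and 2.51 and 3.22 CPM with cytokines (log2 fold change 2.02, SE 0.40, adjusted p = 0.0206). Sod1, the cytosolic enzyme, fell by 0.42 on the log2 scale. Among amino acid and nucleotide genes, 4 of 19 rose (8 higher and 1 lower with the replicate block). Slc7a2, a carrier of the nitric oxide precursor arginine, had 61.04 and 41.97 CPM in the control libraries and 2032 and 1697 CPM with cytokines (log2 fold change 5.18, SE 0.28, adjusted p = 0.000913). Nampt, which makes a precursor of NAD, had 94.1 and 94.2 CPM in the control libraries and 271 and 218 CPM with cytokines (log2 fold change 1.38, SE 0.25, adjusted p = 0.0175). The treated libraries lay above the controls in both genes, by the wider margin in Slc7a2. Glycolysis and hypoxia genes rose in 14 of 24 members and fell in 0 (median 0.58; 19 higher and 1 lower with the replicate block). Hk2, hexokinase 2, had 59.5 and 61.6 CPM in the control libraries and 124 and 114 CPM with cytokines (log2 fold change 0.97, SE 0.091, adjusted p = 0.00278). Slc2a1, the glucose carrier GLUT1, had 269 and 307 CPM in the control libraries and 547 and 552 CPM with cytokines (log2 fold change 0.93, SE 0.14, adjusted p = 0.00962). Ldha, lactate dehydrogenase A, had 1180 and 1234 CPM in the control libraries and 2263 and 2160 CPM with cytokines (log2 fold change 0.87, SE 0.15, adjusted p = 0.0135). The changes of this list were small beside those of the chemokines, with treated libraries above controls in all 3 genes. Glycolysis members higher numbered 4, 4, 4 and 5 with 1 WT library left out, and Sod2, Slc7a2 and Hk2 passed each time.

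Genes of cholesterol synthesis rose together, in 14 of 19 tested members of the cholesterol and oxysterol list, with 0 lower and a median log2 change of 1.24. Idi1, an isomerase of the pathway, had 6.72 and 7.38 CPM in the control libraries and 36.2 and 28.9 CPM with cytokines (log2 fold change 2.21, SE 0.36, adjusted p = 0.0126). Cyp51, a demethylase of it, had 35.1 and 34.2 CPM in the control libraries and 145 and 110.4 CPM with cytokines (log2 fold change 1.88, SE 0.38, adjusted p = 0.0252). Hmgcs1, which makes its early intermediate HMG-CoA, had 45.05 and 44.4 CPM in the control libraries and 176 and 136 CPM with cytokines (log2 fold change 1.80, SE 0.37, adjusted p = 0.0253). The 3 enzymes rose without overlap of the groups. Srebf2, the transcription factor that drives these enzymes, had 135 and 148 CPM in the control libraries and 307 and 257 CPM with cytokines (log2 fold change 0.99, SE 0.18, adjusted p = 0.0166). All 4 had treated libraries above controls. Ch25h, which makes 25-hydroxycholesterol, had 27.3 and 27.3 CPM in the control libraries and 203 and 172 CPM with cytokines (log2 fold change 2.78, SE 0.16, adjusted p = 0.00093), and 11.5% of its exon bases overlap another tested gene. The count was not stable to the libraries, with 1, 1, 2 and 5 higher when 1 WT library was left out, and Ch25h passed each time. In the separate dKO libraries, 13 of the 19 rose (median 1.61), against 549 of all 15698 tested genes.

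Of 19 cell death and survival genes, 7 rose and 0 fell (median 0.23; 8 higher and 2 lower with the replicate block). Fas, the death receptor, had 28.8 and 34.01 CPM in the control libraries and 203 and 161 CPM with cytokines (log2 fold change 2.53, SE 0.27, adjusted p = 0.00388). Gsdmd, the pore-forming protein of pyroptosis, had 55.9 and 51.7 CPM in the control libraries and 161 and 123 CPM with cytokines (log2 fold change 1.40, SE 0.14, adjusted p = 0.00333). Mlkl, that of necroptosis, had 55.8 and 59.02 CPM in the control libraries and 176 and 135 CPM with cytokines (log2 fold change 1.44, SE 0.16, adjusted p = 0.00397). Cflar, an inhibitor of caspase-8 that NF-κB induces, rose by 0.53, and Bcl2, Mcl1 and Xiap did not pass. Among genes of the unfolded protein and integrated stress response 6 of 15 rose (median 0.33; 7 higher and 1 lower with the replicate block), including the chaperones Hspa5, by 0.67, and Calr, by 0.84, while Ddit3 and Atf4 had changes of -0.032 and 0.33 and did not pass. With 1 WT library left out, 4, 5, 4 and 5 death genes and 0, 0, 0 and 4 stress genes were higher. Fas, Gsdmd and Mlkl passed in each of those fits.

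Few genes that define endothelium passed the test over all 8 libraries, in which 9.72% of all tested genes rose and 7.69% fell. With the replicate block these shares were 19.3% and 18.5%. Of 21 endothelial transcription factors, 0 rose and 2 fell (median -0.20), and 5 were higher and 5 lower with the replicate block. The 2 that fell were Epas1, HIF-2α, and Foxo1, a factor restrained by AKT. Epas1 had 498 and 437 CPM in the control libraries and 271 and 211 CPM with cytokines (log2 fold change -0.96, SE 0.18, adjusted p = 0.0176). Foxo1 had 134 and 129 CPM in the control libraries and 80.6 and 87.7 CPM with cytokines (log2 fold change -0.64, SE 0.13, adjusted p = 0.022). Both had treated libraries below controls. Klf4, a flow-responsive factor, had 51.2 and 31.4 CPM in the control libraries and 34.9 and 20.97 CPM with cytokines (log2 fold change -0.57, SE 0.34, adjusted p = 0.301; with the replicate block -0.57, SE 0.17, adjusted p = 0.0454). The related Klf2 had 12.7 and 6.98 CPM in the control libraries and 7.41 and 8.403 CPM with cytokines (log2 fold change -0.31, SE 0.30, adjusted p = 0.526). In both Klf genes the groups overlapped. Sox17, an arterial factor, had 1.51 and 1.55 CPM in the control libraries and 0.7497 and 1.41 CPM with cytokines (log2 fold change -0.50, SE 1.23, adjusted p = 0.823). Of 25 endothelial surface genes, 0 rose and 1, Eng, fell (median -0.46), against 3 and 11 with the replicate block. In the 4 WT libraries alone 3 of them rose and 9 fell, while 2386 of all genes rose and 2199 fell. Cdh5, the adherens junction protein VE-cadherin and a marker of the sort, had 1233 and 1307 CPM in the control libraries and 1442 and 1390 CPM with cytokines (log2 fold change 0.16, SE 0.61, adjusted p = 0.893). With the edgeR fit of the 4 WT libraries alone its change was 0.14 (SE 0.093, adjusted p = 0.298). Kdr, VEGF receptor 2, had 47.1 and 44.4 CPM in the control libraries and 28.4 and 37.5 CPM with cytokines (log2 fold change -0.47, SE 1.46, adjusted p = 0.862; with the replicate block -0.49, SE 0.13, adjusted p = 0.0174). Tek, the angiopoietin receptor, had 149 and 124 CPM in the control libraries and 88.5 and 91.4 CPM with cytokines (log2 fold change -0.60, SE 0.57, adjusted p = 0.518; in the 4 WT libraries alone -0.62, SE 0.11, adjusted p = 0.0126). The fitted changes of these 3 genes were smaller than those of Cxcl2, Cxcl3 and Cxcl5. The 10 endothelial markers summed to 8285 and 8244 CPM in control and 5100 and 4926 CPM with cytokines, in which Eng is included. The fit over all 8 libraries takes its spread from the dKO libraries too. In dKO control, Cdh5 had 163 and 587 CPM, Kdr 1.25 and 27.3 CPM and Tek 52.6 and 60.4 CPM. For Kdr the SE was 1.46 in that fit and 0.14 in the 4 WT libraries alone. A gene that did not pass over all 8 libraries is therefore not shown to be unchanged in WT. With 1 WT library left out, 0 transcription factors and 0 surface genes were lower.

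Genes of liver sinusoidal endothelium, the fenestrated scavenging cells of the liver, fell in 4 of 20 tested members and rose in 0 (median -1.15), and 8 were lower with the replicate block. Clec4g (ENSMUSG00000074491, GRCm38 chromosome 8, 3707064 to 3720651, minus strand), the sinusoidal lectin LSECtin, had 29.2 and 33.9 CPM in the control libraries and 0.0882 and 0.196 CPM with cytokines (log2 fold change -7.72, SE 0.86, adjusted p = 0.00456), the largest fitted fall among genes averaging 10 CPM or more in 1 WT group without overlap. Ehd3, an endocytic trafficking protein, had 429 and 329 CPM in the control libraries and 85.4 and 68.5 CPM with cytokines (log2 fold change -2.30, SE 0.27, adjusted p = 0.00483). Gata4, the transcription factor of sinusoidal identity, had 309 and 241 CPM in the control libraries and 144 and 105 CPM with cytokines (log2 fold change -1.14, SE 0.27, adjusted p = 0.0365). In all 3 the treated libraries lay below the controls. Rspo3, which supports Wnt signalling to hepatocytes, fell, with 298 and 249.9 CPM in the control libraries and 134 and 110.3 CPM with cytokines (log2 fold change -1.16, SE 0.28, adjusted p = 0.0354). Some sinusoidal markers did not pass. Lyve1, a hyaluronan receptor, had 159 and 63.95 CPM in the control libraries and 111 and 99.1 CPM with cytokines (log2 fold change -0.084, SE 0.70, adjusted p = 0.952). The scavenger receptor Stab2 had 1.37 and 0.202 CPM in the control libraries and 0.397 and 0.0785 CPM with cytokines (log2 fold change -1.72, SE 1.66, adjusted p = 0.526). Stab2 was low in every library, so the sinusoidal label rests on some markers and not on others; its partner Stab1 had 1737 and 2053 CPM in the control libraries and 1603 and 1588 CPM with cytokines. Members lower numbered 2 with 1 WT library left out, and Clec4g and Ehd3 passed each time.

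Several signals that shape vessels fell. Of 24 TGF-β and BMP pathway genes, 1 rose and 6 fell (median -0.24), against 6 and 10 with the replicate block. Tgfb2, a ligand, had 102 and 77.4 CPM in the control libraries and 7.76 and 8.95 CPM with cytokines (log2 fold change -3.43, SE 0.58, adjusted p = 0.0158). Tgfbr2, the ligand-binding receptor, had 612 and 614 CPM in the control libraries and 270.2 and 272 CPM with cytokines (log2 fold change -1.18, SE 0.17, adjusted p = 0.0078). Both ends of TGF-β2 signalling, ligand and receptor, were lower in both treated libraries. The inhibitory Smad7 had 141 and 116 CPM in the control libraries and 57.5 and 45.8 CPM with cytokines (log2 fold change -1.31, SE 0.15, adjusted p = 0.00425). The BMP target Id3 had 842 and 713 CPM in the control libraries and 355 and 303 CPM with cytokines (log2 fold change -1.24, SE 0.15, adjusted p = 0.00521). These 4 were lower in both treated libraries. Inhba, the activin A subunit, rose, with 53.9 and 50.2 CPM in the control libraries and 254 and 214 CPM with cytokines (log2 fold change 2.17, SE 0.22, adjusted p = 0.0034). Members lower numbered 2, 2, 2 and 4 with 1 WT library left out, and Smad7, Id3 and Inhba passed each time.

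Of 18 angiogenic growth factor genes, 2 rose and 5 fell (median -0.33), against 4 and 9 with the replicate block. Pdgfd, a growth factor for mural cells, had 25.3 and 38.6 CPM in the control libraries and 7.497 and 8.25 CPM with cytokines (log2 fold change -2.02, SE 0.23, adjusted p = 0.00409). Its relative Pdgfa rose, with 39.2 and 40.5 CPM in the control libraries and 108 and 115 CPM with cytokines (log2 fold change 1.49, SE 0.14, adjusted p = 0.0027). Pdgfa and Pdgfd, members of one family, thus moved in opposite directions without overlap. Vegfa had 296 and 256 CPM in the control libraries and 362 and 392 CPM with cytokines (log2 fold change 0.45, SE 0.33, adjusted p = 0.393; with the replicate block 0.45, SE 0.11, adjusted p = 0.016). Angpt2, the antagonist of Tek signalling, had 446 and 646 CPM in the control libraries and 134 and 222 CPM with cytokines (log2 fold change -1.62, SE 1.24, adjusted p = 0.419; with the replicate block -1.64, SE 0.11, adjusted p = 2.14e-05). Vegfa and Angpt2 thus passed with the block and not without it. Vegfd, a lymphatic growth factor, fell, with 0.591 and 1.96 CPM in the control libraries and 0.0441 and 0.0393 CPM with cytokines, a ratio of control to treated of 31.4 (95% counting interval 8.39 to 264) from the 2 counts left with cytokines (adjusted p = 0.0228). Among 17 Notch and arterial genes 1 rose, Rbpj, the DNA-binding effector of Notch, with 52.8 and 54.7 CPM in the control libraries and 95.6 and 113 CPM with cytokines (log2 fold change 0.96, SE 0.10, adjusted p = 0.00401), and 0 fell, against 4 and 4 with the replicate block. Neither of the ligands Dll4 and Jag1 passed over all 8 libraries. Dll4 had 38.1 and 47.7 CPM in the control libraries and 33.5 and 55.99 CPM with cytokines (adjusted p = 0.989). Jag1 had 119 and 112 CPM in the control libraries and 166 and 141 CPM with cytokines (adjusted p = 0.181; in the 4 WT libraries alone 0.40, SE 0.11, adjusted p = 0.0399). Among 18 semaphorin, plexin, ephrin and Eph genes, Sema4c alone rose (log2 fold change 1.32, SE 0.18, adjusted p = 0.00643), and with the replicate block 2 were higher and 5 lower. Angiogenic members lower numbered 2, 1, 1 and 2 with 1 WT library left out, and Pdgfd, Pdgfa and Rbpj passed each time.

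Cell contact and matrix genes changed in a minority of members, as did all tested genes, of which 9.72% rose and 7.69% fell. With the replicate block these shares were 19.3% and 18.5%. The counts of junction genes, and of the mesenchymal genes further on, lie near the shares without the block. Of 15 junction genes 0 rose and 1, Amotl2, a regulator of Yap at junctions, fell, with 528 and 564 CPM in the control libraries and 128 and 131 CPM with cytokines (log2 fold change -2.07, SE 0.37, adjusted p = 0.0164), against 2 and 4 with the replicate block. Of 14 integrins, 3 rose and 1 fell (5 higher and 4 lower with the replicate block). Itgb3, the β chain of the vitronectin receptor, had 173 and 178 CPM in the control libraries and 1172 and 1134 CPM with cytokines (log2 fold change 2.71, SE 0.25, adjusted p = 0.00278). Its α chain Itgav had 62.3 and 60.1 CPM in the control libraries and 176 and 164 CPM with cytokines (log2 fold change 1.48, SE 0.16, adjusted p = 0.00366). Itga1, a collagen and laminin receptor chain, had 74.2 and 85.6 CPM without and 11.02 and 16.6 CPM with cytokines (log2 fold change -2.53, SE 0.29, adjusted p = 0.00456). Both vitronectin receptor chains thus rose. Itga2, another collagen receptor chain, rose, with 2.51 and 2.33 CPM in the control libraries and 29.2 and 27.8 CPM with cytokines (log2 fold change 3.56, SE 0.60, adjusted p = 0.015), so the 2 collagen receptor chains moved in opposite directions. Of 15 basement membrane genes 3 rose and 1 fell (7 higher and 4 lower with the replicate block), with Agrn, agrin, at 73.4 and 58.8 CPM in the control libraries and 804 and 443 CPM with cytokines (log2 fold change 3.24, SE 0.30, adjusted p = 0.00282).

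Matrix proteases and inhibitors had 8 of 21 higher and 3 lower (median 0.76; 11 higher and 5 lower with the replicate block). Mmp9, gelatinase B, had 0.332 and 0.337 CPM in the control libraries and 33.2 and 30.6 CPM with cytokines (log2 fold change 6.55, SE 0.52, adjusted p = 0.00235). Mmp3, stromelysin-1, had 6.06 and 22.1 CPM in the control libraries and 500.2 and 691 CPM with cytokines (log2 fold change 5.40, SE 0.89, adjusted p = 0.0145). Adamts4, an aggrecanase, had 25.4 and 27.8 CPM in the control libraries and 563 and 393 CPM with cytokines (log2 fold change 4.17, SE 0.39, adjusted p = 0.00323). All 3 proteases were higher in both treated libraries than in both controls. Timp3, a matrix-bound inhibitor, fell, with 36.3 and 56.8 CPM in the control libraries and 11.02 and 15.4 CPM with cytokines (log2 fold change -1.81, SE 0.34, adjusted p = 0.0203). Timp1 rose, with 57.6 and 63.95 CPM in the control libraries and 156 and 167 CPM with cytokines (log2 fold change 1.41, SE 0.32, adjusted p = 0.0315). Of 19 mesenchymal genes 2 rose and 1 fell (4 higher and 5 lower with the replicate block); Acta2 and Tagln, smooth muscle genes, did not pass, with log2 changes of -0.40 and -0.36. Protease members higher numbered 3, 5, 5 and 5 with 1 WT library left out; of these and the integrin and basement membrane genes, Itgb3, Itgav, Itga1, Agrn, Mmp9 and Adamts4 passed each time.

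Among genes of DNA replication and mitosis, 3 of 29 were higher and 1 lower (median -0.13; 6 higher and 5 lower with the replicate block), and the share higher was near that over all genes tested. Mki67, a marker of cycling cells, had 14.1 and 13.96 CPM in the control libraries and 34.1 and 34.4 CPM with cytokines (log2 fold change 1.29, SE 0.31, adjusted p = 0.037). Top2a and Ccnb1, expressed in the same phases, had log2 changes of 0.038 and -0.61 and did not pass. Among D cyclins and CDK inhibitors 0 of 12 rose and 2, Ccnd1 and Ccnd2, fell (2 higher and 4 lower with the replicate block). Ccnd1, with 23.4% of its exon bases shared with another tested gene, had 101 and 90.3 CPM in the control libraries and 53.3 and 48.1 CPM with cytokines (log2 fold change -0.92, SE 0.18, adjusted p = 0.0187). Cdkn1a, the inhibitor p21, had 67.7 and 96.2 CPM in the control libraries and 186 and 170.2 CPM with cytokines (log2 fold change 1.12, SE 0.36, adjusted p = 0.0837; with the replicate block 1.14, SE 0.21, adjusted p = 0.0134). The calls of Mki67 and Ccnd1 were absent from each of the 4 fits that left out 1 WT library, in which 0 replication genes were higher.

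Among the largest changes over all genes, several belong to no list above. Slc2a6, a hexose carrier, had 0.111 and 0.472 CPM in the control libraries and 41.7 and 26.1 CPM with cytokines (log2 fold change 6.81, SE 0.57, adjusted p = 0.00236). Pilra, an inhibitory receptor with 15.2% of its exon bases shared, had 0.0738 and 0.101 CPM in the control libraries and 14.1 and 11.5 CPM with cytokines (log2 fold change 7.10, SE 0.43, adjusted p = 0.00183). Neither gene overlapped between groups. Ttc39a had 0.0738 and 0.202 CPM in the control libraries and 16.8 and 11.3 CPM with cytokines (log2 fold change 6.59, SE 1.03, adjusted p = 0.0125). Sprr2e, whose counts can be shared with near-copies, had 0 and 0.135 CPM in the control libraries and 18.3 and 14.7 CPM with cytokines (log2 fold change 7.78, SE 1.22, adjusted p = 0.0127). All 4 were near 0 in both control libraries. In the other direction, Cyp26b1, which degrades retinoic acid, had 42.6 and 65.5 CPM in the control libraries and 1.32 and 1.73 CPM with cytokines (log2 fold change -5.14, SE 0.81, adjusted p = 0.0128). Aldh1a1, which makes it, had 32.1 and 116 CPM in the control libraries and 1.37 and 7.42 CPM with cytokines (log2 fold change -4.06, SE 0.95, adjusted p = 0.0373). Both enzymes of retinoic acid turnover thus fell. Colec11, a collectin of the complement lectin pathway and a stellate cell marker, had 21.8 and 19.3 CPM in the control libraries and 0.838 and 1.26 CPM with cytokines (log2 fold change -4.28, SE 0.25, adjusted p = 0.000959). Npr3, the clearance receptor of natriuretic peptides, had 16.9 and 48.98 CPM in the control libraries and 1.41 and 2.71 CPM with cytokines (log2 fold change -3.99, SE 0.94, adjusted p = 0.0377). The groups of Npr3 did not overlap. Bmx, a non-receptor tyrosine kinase of arterial endothelium, had 90.3 and 110.5 CPM in the control libraries and 5.38 and 10.3 CPM with cytokines (log2 fold change -3.67, SE 0.35, adjusted p = 0.00346). Svep1, an extracellular matrix protein that binds Tie1, had 24.04 and 12.98 CPM in the control libraries and 1.102 and 1.33 CPM with cytokines (log2 fold change -3.92, SE 0.33, adjusted p = 0.00235). Each of these was lower in both treated libraries than in both controls, and Aldh1a1 and Npr3 also differed widely between the 2 control libraries. Slc2a6, Pilra, Colec11, Bmx and Svep1 passed in all 4 fits with 1 WT library left out.

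The WT response was set beside that of dKO cells, whose libraries are separate. Unlike either WT replicate, dKO replicate 2 held both Xist and Ddx3y. Xist had 224 CPM without and 171 CPM with cytokines there, and Ddx3y 90.6 and 117.5 CPM. The part of this in the comparison was not tested. The test of the difference between the responses called 0 genes (0.0% of those tested, edgeR; smallest adjusted p 0.1004), 1683 genes had an unadjusted p under 0.05, DESeq2 called 391, and the replicate block called 947, 508 with a more positive change in dKO and 439 with a more negative one. Of the 2733 genes that changed in WT, 2510 had a change of the same sign in dKO. The 1526 that rose in WT had a median log2 change of 0.87 there and 0.47 in dKO, and the 1207 that fell -1.0 and -0.47; the genes were chosen by their change in WT, so its larger size in WT is no finding. By list, the median of NF-κB subunits, IκB proteins and kinases was 1.01 in WT and 0.81 in dKO. The antiviral genes had 2.93 and 0.18, and the GTPases 3.16 and 0.78. Cholesterol genes had 1.24 and 1.61. CXC chemokines had 5.28 and 2.04, and MHC class I genes 1.90 and 0.85. The lists of chemokines and interferon-stimulated genes were thus those in which the medians lay furthest apart. Each median is relative to the control of its own genotype, so a smaller one need not mean a lower level with cytokines. Cxcl5 in dKO had 1932 and 1350 CPM without and 6269 and 5954 CPM with cytokines. In WT it had 72.85 and 203 CPM without and 5936 and 6056 CPM with cytokines. Cxcl10 instead had 1.45 and 1.68 CPM with cytokines in dKO, against 500 and 127 CPM in WT. In dKO, 0 of 41 antiviral and 4 of 12 CXC chemokine genes passed as higher, against 549 of all 15698 tested genes. The 0 of 41 lies near that small share. Isg15 had 6.17 and 3.58 CPM without and 11.6 and 7.07 CPM with cytokines in dKO (difference of the responses -4.60, SE 0.90, adjusted p = 0.223; adjusted p = 0.106 with the replicate block and 3.62e-07 by DESeq2). Nfkbia had 451 and 373 CPM without and 1200 and 1114 CPM with cytokines in dKO (difference -0.16, SE 0.20, adjusted p = 0.839).

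**Figure D5:**
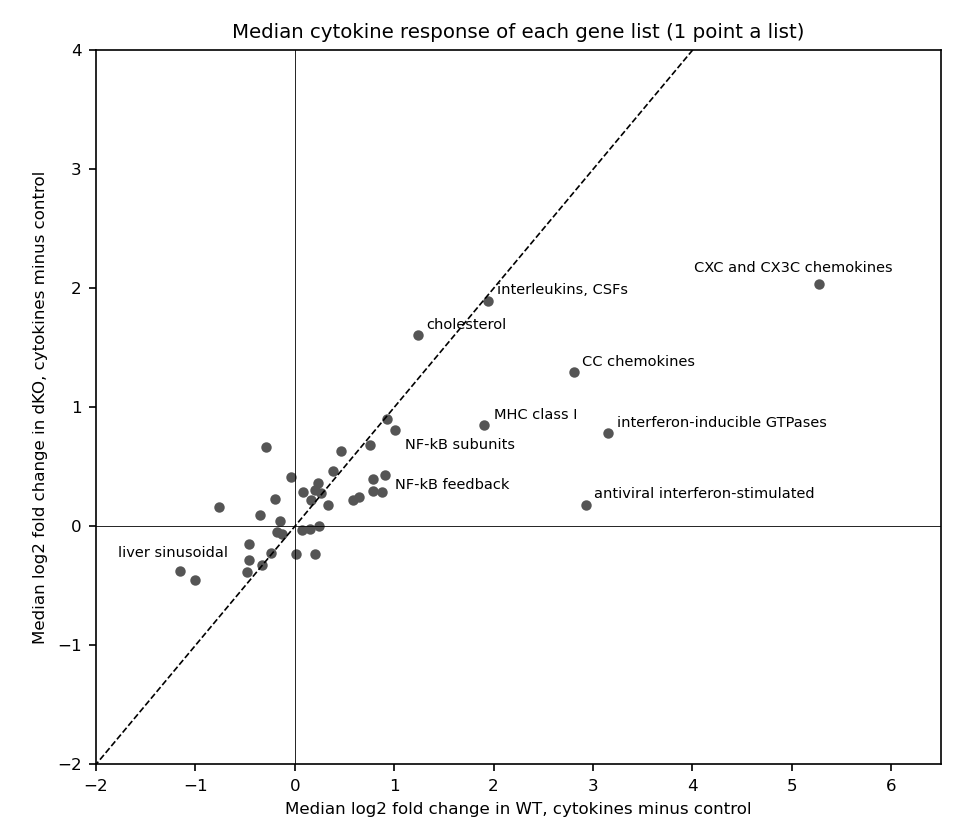
Median log2 change with cytokines of each gene list in WT (horizontal axis) and in dKO (vertical axis), with a dashed line at equal change. Antiviral genes lie at 2.93 in WT and 0.18 in dKO, and cholesterol genes at 1.24 and 1.61.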

How the data were processed

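The authors deposited 1 table of unnormalized counts for Ensembl genes in 8 libraries, whose totals differ. GRCm38, STAR 2.7.6a and FastQC 0.11.5 are named per the submitters' processing notes. Not given in the sources used here are the counting program, its strand setting and the annotation. The kit was unstranded or stranded per the labels' protocols, which do not say which library used which, so genes that overlap on opposite strands may share counts; near-copies (Ifit3 and Ifit3b, the H2-Q, Gbp, Tgtp and Sprr2 genes, Saa3) are uncertain too.

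Counts were fitted in R 4.3.3 with edgeR 4.0.16 (TMM scaling, low-count filter by group, robust quasi-likelihood, 1 coefficient per group over all 8 libraries, 4 residual degrees of freedom, biological coefficient of variation 24.3%), two-sided with Benjamini-Hochberg adjustment over 15698 genes at 0.05. The fitting was tested on simulated data. Floors and intervals cover counting error only. Alternatives were RLE scaling, no filter, DESeq2 1.42.0, the replicate block, the 4 WT libraries alone and leaving out each library. Replicate numbers were treated as pairs inside each genotype on the evidence of the data, not the labels: deviations from group means correlated at 0.434 in WT and 0.689 in dKO, against 0.0311 and 0.134 across genotypes, and Xist and Y-linked levels matched.

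The comparison, 44 gene lists and the naming rule were chosen with earlier results of these data known. Named genes were the 12 largest rises and 12 largest falls past 0.05 averaging 10 CPM or more in a WT group without overlap, up to 3 members of each list, and 79 genes by role; not all are given, and some are not reported here. Other genes were chosen after their values were seen: Ackr4, Acta2, Adamts4, Atf4, B2m, Bcl2, Bcl3, Bst2, Casp1, Ccnb1, Cd34, Cflar, Chuk, Cxcl12, Cxcl16, Cxcl2, Cxcl5, Cyld, Dcn, Ddit3, Ddx3y, Egr1, Esam, Fos, Gata4, Gch1, H2-T23, Hk2, Hmgcs1, Icam2, Id3, Ifi27l2a, Ifi44, Ifih1, Ifit1, Ifitm1, Ifitm2, Iigp1, Ikbkb, Ikbke, Ikbkg, Il1a, Il1b, Il33, Irak3, Irf3, Irf8, Irgm1, Itgav, Jak2, Junb, Ldha, Mavs, Mcl1, Mx2, Otulin, Pdgfa, Pml, Psme1, Ptgis, Ptgs1, Pycard, Rel, Rnf19b, Rsad2, Slc2a1, Socs1, Socs2, Sod1, Sp100, Srebf2, Stab1, Tagln, Tbk1, Tgfbr2, Tgtp1, Timp1, Timp3, Tlr4, Tnip1, Top2a, Trim25, Xiap, Xist and Zfp36.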

Additional observations from a re-analysis of the deposited data

How the results depend on the processing

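The counts of changed genes depended on how the spread was estimated and on single libraries. With the replicate block, which pairs libraries of the same number within a genotype, 3033 genes were higher, 2910 lower and 947 differed between the WT and dKO responses. With only the 4 WT libraries 2386 were higher and 2199 lower, and 3198 and 3344 when the block was added, against 1526 and 1207. Leaving out 1 library at a time gave 210 to 1533 genes higher, 203 to 1284 lower and 0 to 41 that differed between responses, lowest for the higher genes without WT control replicate 1; the cause was not tested. The difference between responses called 391 genes by DESeq2 and 75 without the filter on low counts. DESeq2 called 1815 higher and 1623 lower, RLE scaling 1467 and 1225, and no filter 1244 and 1190. None of the 158 named genes that passed changed sign in any of the 14 alternatives, while some that did not pass, among them Klf2, Lyve1 and Nos3, changed sign with a WT library left out. Of the 158, 157 kept their call with RLE scaling, 157 with DESeq2, 129 without the filter, 158 with the block, 152 with only the WT libraries, and 58, 60, 90 and 110 without WT control replicate 1, WT control replicate 2, WT cytokine replicate 1 and WT cytokine replicate 2. The block added 11 calls among named genes, and no call was lost with it. With 2 libraries in a group, genes with few counts, such as Cd40 and Ackr4, are least precise.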

Other observations

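Some gene families outside the lists above, grouped by symbol after the lists had been examined, also rose. Of 7 tested Ifi200 genes, whose proteins sense DNA, 6 rose, among them Ifi205 with 0 and 0.0337 CPM in the control libraries and 4.498 and 2.43 CPM with cytokines (log2 fold change 7.26, SE 0.75, adjusted p = 0.00363) and Mndal with 6.13 and 7.15 CPM in the control libraries and 30.3 and 22.5 CPM with cytokines (log2 fold change 1.99, SE 0.25, adjusted p = 0.00545). Of 12 Parp genes, enzymes that attach ADP-ribose, 7 rose and 0 fell, and Parp12 had 29.7 and 29.3 CPM in the control libraries and 181 and 90.4 CPM with cytokines (log2 fold change 2.20, SE 0.32, adjusted p = 0.00973). Of 45 Trim ubiquitin ligases 10 rose and 2 fell, led by Trim14 (log2 fold change 3.32, SE 0.67, adjusted p = 0.0219). Schlafen genes rose in 3 of 6 and Apol genes in 3 of 5; near-copies within these families can share counts. Over all genes tested 9.72% rose and 7.69% fell.

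Among genes of protein turnover and synthesis, 9 of 18 proteasome core subunits rose, 3 of them the immunoproteasome subunits Psmb8, Psmb9 and Psmb10, and 7 of 20 regulatory subunits rose, with a median log2 change of 0.35. Cytosolic aminoacyl-tRNA synthetases rose in 9 of 18 (median 0.41). Ribosomal protein genes did not move as a family, with 0 of 83 higher and 2 lower, nor did subunits of mitochondrial complex I, with 0 of 36 higher and 1 lower. Of 352 C2H2 zinc finger genes named Zfp, 11 rose and 24 fell. Of 242 solute carriers 29 rose and 20 fell, near the shares over all genes tested. These families were picked after the values were seen, so their counts describe these libraries only.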
